A study of Mus musculus with 24 samples.

Results

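The effect of chronic mild stress (CMS) on the amygdala was measured on 6 Affymetrix arrays that cover the mouse genome, chosen as the arrays labelled amygdala among the 24 arrays of the series. There were 3 CMS arrays and 3 control arrays, each of total RNA from the amygdala of wild-type male C57BL/6 mice, 6 to 8 weeks old at the start. The CMS group had been put through a 4-week programme of mild stressors, identical from mouse to mouse, with 6 stress days in every week, and the control group had none. The labels call each array a biological replicate, while the methods also speak of pooled RNA, so that the p-values measure the spread between these arrays and that spread may be partly technical. The sample descriptions give an upper age that rises from one sample to the next, although the other labels give 1 range for all, and a part of age in the results was not tested. The other 18 arrays, from the hippocampus, prefrontal cortex and cerebral cortex of mice treated in the same ways, were used for comparison.

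The amygdala is a group of nuclei in the temporal lobe that attaches emotional weight to what is sensed and sets off fear and stress responses. Its basolateral nuclei are cortex-like and hold glutamatergic projection neurons, its central nucleus is striatum-like and holds GABAergic neurons rich in neuropeptides, and its medial and cortical nuclei receive olfactory signals and express hormone receptors. It lies beside the striatum, the hippocampus, the hypothalamus and the optic tract, so that a dissected block can carry tissue of its neighbours.

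Values were deposited as log2 and are centred for each probe set on its median over the 24 arrays. A value of 0 is therefore the middle array of the series, levels cannot be set against those of another gene, and all values below are on this scale. For a transcript that most arrays do not detect, a value near 0 may be background. Centred values do not show detection, so the size of a fold to or from such values is uncertain. A probe set is a group of probes against 1 transcript, and a gene here is the mean of the probe sets that match its symbol alone. CMS was compared with control by limma, a linear model with a moderated spread, two-sided, with Benjamini-Hochberg adjustment over all probe sets or genes tested. Below, a gene rose or fell when its adjusted p was under 0.05, and it was called when its fold change was also over 2, which is 1 on the log2 scale.

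With CMS, 186 of the 45037 probe sets tested were called higher (0.413%) and 350 were called lower (0.777%). Among 18193 genes, 106 were called (0.583%), 26 of them higher (0.143%) and 80 lower (0.44%). Without the fold threshold, 5152 probe sets rose (11.4%) and 3097 fell (6.88%), and 1918 genes rose (10.5%) and 1609 fell (8.84%). The median change of the called probe sets was 1.37 among those higher and -1.29 among those lower, and changes over 2 on the log2 scale were as many in each direction, with 37 probe sets each. Of the probe sets that rose or fell, 62.5% were higher, but 49.6% after quantile normalization and 48.9% after centring each array on its median, so the balance of small changes turned with the scaling. The arrays of the 2 groups did not overlap for 59.2% of probe sets and 55.2% of genes, so an absence of overlap alone is the common case here. The count of called probe sets was 342, 329 and 350 without control replicate 1, 2 and 3.

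Markers of the amygdala were highest in the amygdala among the control arrays of the 4 areas for 5 of 9 basolateral genes, 8 of 12 central genes and 9 of 12 medial and cortical genes. The control amygdala was also the highest area for 11 of 21 striatum markers and for 1 of 18 hippocampal markers, while the hippocampus was the highest for 15 of those 18. Of 27 hypothalamus markers, 12 were highest in the control amygdala and 11 in the hippocampus. Avp was at 5.05 and Pmch at 4.4 in the control amygdala, while others such as Nkx2-1 and Rax were at 0.01. Of 25 thalamus and habenula markers, 8 were highest in the control amygdala. Most markers of the labelled tissue were thus highest there, and markers of the striatum and some of the hypothalamus were high beside them.

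The arrays of each treatment resembled each other more than those of the other. Over all probe sets, which are not independent replicates, Pearson's r was 0.776 to 0.839 between CMS arrays, 0.872 to 0.884 between control arrays and 0.482 to 0.567 between a CMS and a control array. The median SD of a probe set was 0.066 among CMS arrays and 0.033 among control arrays. Bacterial RNAs added at hybridisation, measured by 18 probe sets that were left out of the tests, had mean values of 0.9, 0.81 and 0.75 on the CMS arrays and 0.01, 0.01 and 0.02 on the control arrays (difference 0.802, exact permutation test, two-sided, p = 0.1, the smallest that 3 against 3 arrays allow). The poly-A RNAs added before labelling had 0.498 ± 0.025 with CMS and 0.372 ± 0.03 in controls (SD, n = 3 each). As a sign of RNA quality, the 3 prime minus the 5 prime probe set of beta-actin was at 0.09, 0.07 and 0.06 with CMS and -0.06, 0.01 and -0.02 in controls, and that of Gapdh at 0.17, 0.11 and 0.1 against -0.01, 0.02 and -0.02. The 3 prime control probe set of beta-actin was higher with CMS by 0.757 and that of the transferrin receptor differed by -0.788, without overlap of arrays. These differences ran with the treatment through every result below, and their part in the results was not tested.

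Genes of neuropeptides and of their receptors were among the largest falls, and the gene with the largest fall of all encodes a peptide. Neuropeptides are cut from precursor proteins, stored in vesicles and released to act on G protein-coupled receptors, and the amygdala uses many of them in fear, feeding and social behaviour. Of 32 measured precursors, 5 were called lower and none higher, while 9 fell and 5 rose, with a list median of -0.113 against 0.0224 over all genes tested. Of 45 measured receptors, 3 were called lower and none higher, 8 fell and 1 rose, with a median of 0.00405.

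Pmch, the precursor of melanin-concentrating hormone, made in the lateral hypothalamus and zona incerta, had values of 0.1, 0.33 and 0.21 on the CMS arrays and 4.38, 4.4 and 4.41 on the control arrays. All 3 CMS arrays lay far below the controls and close to the middle of the series, and the gene was 18.2-fold lower with CMS (log2 change -4.18, SE 0.06, adjusted p = 0.000106 from limma). Grp, gastrin-releasing peptide, expressed by excitatory neurons of the lateral amygdala among others, had -3.31, -3 and -2.41 with CMS and -0.12, -0.17 and -0.02 in controls, a 6.98-fold fall (log2 change -2.8, SE 0.24, adjusted p = 0.00395 from limma). Tac2, which encodes neurokinin B and is a marker of central amygdala neurons, had 0.48, 0.37 and 0.01 with CMS and 1.87, 1.89 and 1.85 in controls (log2 change -1.58, SE 0.13, adjusted p = 0.00359 from limma). The groups were apart for each of these genes, with the control arrays close together.

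Pnoc, the precursor of nociceptin, was 2.57-fold lower (CMS arrays -0.5, -0.29 and -0.56, controls 0.92, 0.85 and 0.96). Adcyap1, the precursor of the stress peptide PACAP, had -1.1, -0.16 and -0.15 with CMS and 0.68, 0.97 and 0.59 in controls, so that 1 CMS array lay well below the other two. It only just passed (log2 change -1.22, SE 0.3, adjusted p = 0.0498 from limma). The call of the gene mean was lost whichever of the 6 arrays was left out, with changes then between -1.38 and -0.91. Of its 2 probe sets, 1 was called, at -0.89, -0.9 and -0.6 against 0.14, 0.25 and 0.37 (adjusted p = 0.00756 from limma). The other held the low array and did not pass, at -1.31, 0.58 and 0.29 against 1.23, 1.69 and 0.81. The precursors that rose changed less, and no array value overlapped for Pdyn, the precursor of dynorphins, at 1.34, 1.81 and 1.88 with CMS and 0.55, 0.9 and 0.94 in controls (log2 change 0.89, adjusted p = 0.035 from limma). Npy, Vip, Penk and Tac1 rose by 0.46, 0.51, 0.34 and 0.23.

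Among the receptors, Trhr, the receptor of thyrotropin-releasing hormone and a marker of the medial and cortical amygdala, had 0.56, 0.65 and 0.71 with CMS and 3.34, 3.23 and 3.09 in controls. It was 5.97-fold lower (log2 change -2.58, SE 0.08, adjusted p = 0.000718 from limma), and both of its probe sets were called. Calcr, the calcitonin receptor, had 0.08, 0.21 and 0.95 with CMS and 2.13, 2.83 and 2.83 in controls (log2 change -2.18, SE 0.32), and its call was lost without control replicate 2 or 3, at adjusted p = 0.0574 and 0.0581 from limma. Npy2r, a receptor of neuropeptide Y found on axon terminals, was 2.13-fold lower, at 1.71, 1.96 and 1.87 against 2.93, 3 and 2.88. Mchr1, the receptor of the peptide that Pmch encodes, was higher by 0.37 (adjusted p = 0.039 from limma). The ligand and its receptor thus had opposite signs.

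The values of these and the other largest changes are shown for each array.

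**Figure D1:**
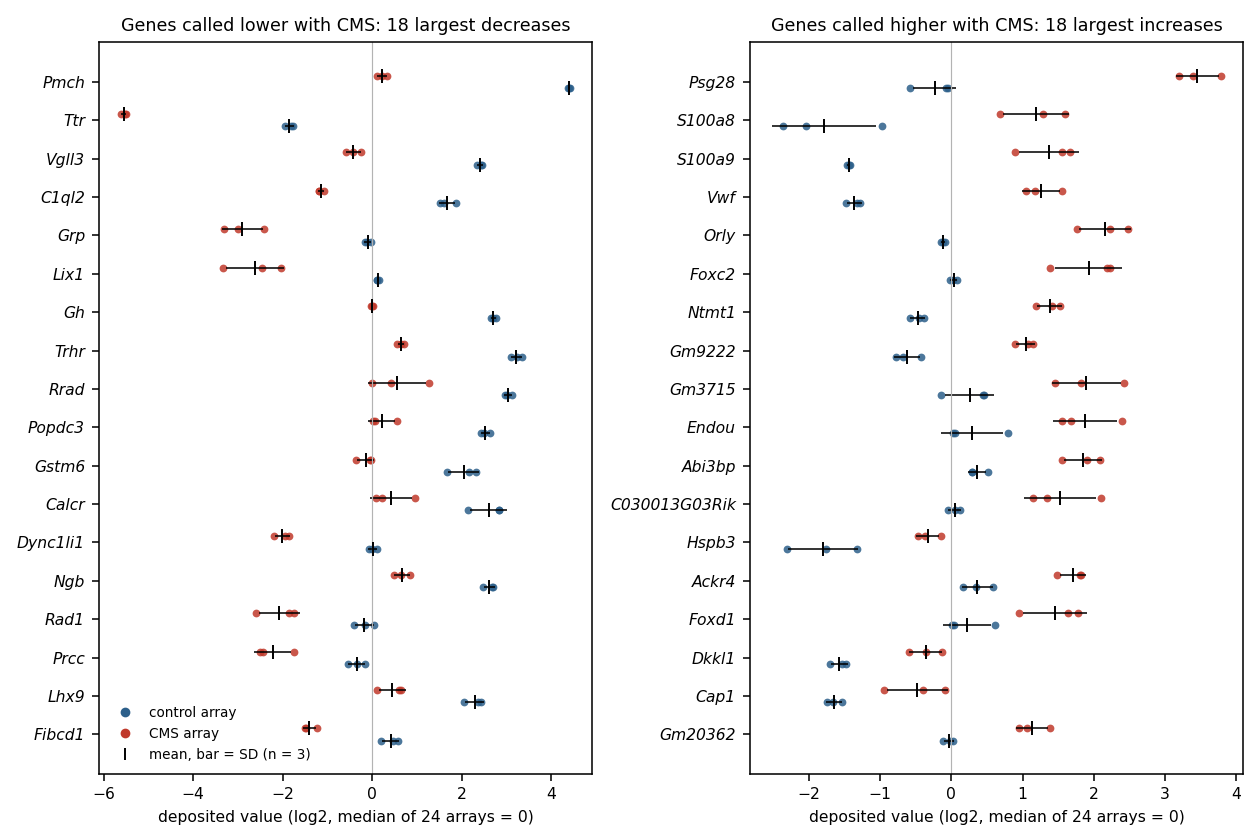
Deposited log2 values (horizontal axis, 0 is the median of the 24 arrays) of the 18 genes with the largest decreases (left) and the 18 with the largest increases (right) among the genes called, for each control array (blue) and CMS array (red), with the mean and SD of 3 arrays in black. The arrays of the 2 groups do not overlap for any gene shown. The control arrays of Pmch lie at 4.38 to 4.41 and its CMS arrays at 0.1 to 0.33.

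Gh, growth hormone, a pituitary hormone that is also transcribed at low levels in brain, had 2.65, 2.7 and 2.76 in the control arrays and -0.02, 0.02 and 0 with CMS. The CMS arrays thus stood at the middle of the series, with SDs of 0.002 to 0.09 for its probe sets. Whether Gh was detected on them at all cannot be read from these values. The gene fell by 2.7 on the log2 scale (SE 0.03, adjusted p = 9.63e-05 from limma), and all 4 of its probe sets were called lower, by -3.28 to -1.64. Of the other 9 measured pituitary hormone genes, none rose or fell. Ttr, transthyretin, which carries thyroid hormone and retinol and is made in brain chiefly by the choroid plexus, had -5.53, -5.61 and -5.51 with CMS and -1.96, -1.82 and -1.78 in controls. It was 13-fold lower (log2 change -3.7, SE 0.06, adjusted p = 0.000115 from limma), with all 4 probe sets called at -4.2 to -3.29.

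In the amygdala, the other choroid plexus markers did not fall with Ttr. Whether they were detected well enough there to fall was not tested. Of 23 measured, Ttr was the 1 that fell, 4 rose and the median was 0.0775. Kcnj13, a potassium channel of that epithelium, had 0.35, 0.02 and 0.02 with CMS and -0.95, -0.49 and -1.31 in controls and was called higher (log2 change 1.05, SE 0.23, adjusted p = 0.0393 from limma), but not without any CMS array or control replicate 1 or 3, at adjusted p up to 0.118. Slc13a4, Clic6 and F5 rose by 0.84, 0.35 and 0.21. Of 23 ependymal and motile cilia genes, which mark the lining of the ventricles, 4 fell and none rose. Dnaic1, of the dynein arms of cilia, was called lower at -1.04 (SE 0.16, adjusted p = 0.0152 from limma), and not without CMS replicate 2 or 3 or control replicate 1 or 2, at changes of -1.02 to -0.95.

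Markers of the neighbouring regions moved in different directions. In bulk tissue, fewer cells of a type and less RNA per cell cannot be told apart. Of 18 measured hippocampal markers of the CA fields and the dentate gyrus, 4 were called lower, 8 fell and none rose, with a median of -0.171. Among all genes, 0.44% were called lower, 8.84% fell and 10.5% rose. Control amygdala means of Lct, Dsp, Iyd and Tdo2 were 0.01, -0.04, 0 and 0.01, against 7.07, 4.75, 2.37 and 1.83 in control hippocampus. A fall from such values may not be possible, so these members say little. Nts and Calb2, also listed, were highest in the control amygdala and control prefrontal cortex. C1ql2, a synaptic C1q-like protein of dentate granule cells, had -1.19, -1.19 and -1.07 with CMS and 1.88, 1.52 and 1.61 in controls, a 7.06-fold fall (log2 change -2.82, SE 0.1, adjusted p = 0.000805 from limma). Fibcd1, a marker of CA1, had -1.47, -1.24 and -1.5 against 0.19, 0.57 and 0.46 and was 3.51-fold lower, with no array near the other group. C1ql3 was 2.52-fold lower (-1.86, -1.99 and -1.87 against -0.62, -0.52 and -0.58). Spink8 had 0, 0.71 and 0.01 against 1.53, 1.16 and 2.03 (log2 change -1.33, SE 0.31, adjusted p = 0.0428 from limma) and lost its call when CMS replicate 1 or 3 or a control array was left out, at adjusted p of 0.0666 to 0.119.

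The control arrays of the other areas, which took no part in the calls, were used to describe the levels of the changed transcripts there. Of the 350 probe sets called lower in the amygdala, 19.4% were higher by over 1 on the log2 scale in control hippocampus than in control cerebral cortex, against 2.02% of all probe sets tested. The reverse held for 6.57% of them, against 3.96% of all. Of the 186 called higher, 6.45% were higher by that much in control hippocampus and 18.3% in control cerebral cortex. Both called groups thus exceeded the shares of all probe sets tested in both directions. Probe sets that vary little cannot be called but count among all, so those shares are no matched background. Counted by the highest of the 3 other areas, with no minimum size, the probe sets called lower stood differently. The hippocampus was highest for 39.7% of them against 48.8% of all probe sets tested, the prefrontal cortex for 41.7% against 22.5%, and the cerebral cortex for 18.6% against 28.7%.

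Striatum markers rose together by small amounts. Of 21 measured, 15 rose, none fell and none was called as a gene, and the median was 0.425 (0.395 after quantile normalization and 0.4 after median centring). A probe set was called higher for 2 of them. Isl1, Penk and Drd2 are also on the list of central amygdala markers, Tac1 on the medial and cortical list and Ppp1r1b on the basolateral list. The striatum list thus does not separate the striatum from the amygdala. The largest change past the threshold was that of Pdyn, given above. Serpina9, with a larger change than most, was at 2.78, 2.01 and 2.4 with CMS and 1.74, 1.33 and 1.73 in controls and did not pass (log2 change 0.79, adjusted p = 0.077 from limma). Syndig1l, a synapse protein of striatal neurons, was at 1.99, 1.96 and 1.88 with CMS and 1.23, 1.19 and 1.2 in controls. Drd1, the dopamine D1 receptor, rose by 0.46, while Drd2 at 0.2 did not pass (adjusted p = 0.127 from limma).

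Of 20 cortical layer and claustrum markers, 8 rose and 2 fell, with a median of 0.151, and Ccn2, a matrix protein and marker of deep cortical layers, was the 1 called. Its CMS arrays were at -0.12, -0.01 and -0.08 and its controls at -1.16, -1.11 and -1.07 (log2 change 1.04, SE 0.04, adjusted p = 0.000805 from limma). Hypothalamus markers fell for 5 of 27 genes and rose for 1, with Pmch and Calcr called lower and a median of -0.00217. Control means of Nkx2-1, Nkx2-4, Rax, Six6, Hmx2 and Hmx3 were 0.01 in the amygdala and -0.02 to 0.04 in the other areas. With such members, the median says little about those with higher values. The list mean, which includes the falls of Pmch and Calcr, was 0.44 to 0.638 with CMS and 0.948 to 1.056 in controls. Irs4 and Otp, a homeobox factor of hypothalamic and medial amygdala neurons, fell by 0.72 and 0.52. A probe set of Irs4 was called lower, at -1.45. Of 25 markers of the thalamus and habenula, 7 fell and 6 rose, and Lhx9 and Tac2 were called lower.

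Markers of the amygdala's own nuclei were mixed. Of 9 basolateral markers, 5 fell and 3 rose, with a median of -0.32 and none called. Fezf2, a zinc finger factor of projection neurons, fell by 0.69 (SE 0.11), and Nr2f2, a nuclear receptor of migrating neurons, by 0.59 (SE 0.03). Fezf2, also on the cortical layer list, had its lowest control mean in the amygdala, at -1.68. Its means were 0.65, -0.58 and 0.53 in control hippocampus, prefrontal cortex and cerebral cortex, so its fall need not describe basolateral cells. Lmo3 rose by 0.52. Of 12 central markers 3 rose (Isl1, Wfs1 and Penk) and 2 fell, and of 12 medial and cortical markers 2 rose and 4 fell. Lhx9, a LIM homeobox factor of that second group, had 0.11, 0.64 and 0.6 with CMS and 2.43, 2.05 and 2.37 in controls (log2 change -1.83, SE 0.19, adjusted p = 0.0057 from limma), with 3 of its 4 probe sets called lower. Esr1, an estrogen receptor, fell by 0.43.

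Further large falls were of single genes. Vgll3, a cofactor of TEAD transcription factors, had -0.25, -0.44 and -0.58 with CMS and 2.33, 2.45 and 2.42 in controls, 7.08-fold lower with all 3 probe sets called. Lix1 had -2.47, -3.33 and -2.05 with CMS and 0.11, 0.11 and 0.16 in controls, 6.68-fold lower. Popdc3, a membrane protein of the Popeye family, was 4.98-fold lower, with CMS arrays at 0.05, 0.55 and 0.02 and controls at 2.43, 2.63 and 2.5. Each of these genes had all CMS arrays below all controls by over 1.5 on the log2 scale.

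Rrad, a small GTPase that inhibits calcium channels, had 1.27, 0.41 and 0 with CMS and 3.12, 3 and 2.96 in controls. Its CMS arrays were spread more widely, and its call at a log2 change of -2.47 (SE 0.34) was lost without control replicate 1 or 2, at adjusted p = 0.0507 and 0.051 from limma. Ngb, neuroglobin, was 3.88-fold lower, with both probe sets called. Lpar1, a receptor of lysophosphatidic acid that oligodendrocytes express, was 2.4-fold lower as a gene, with 1 of 3 probe sets called at -2.41. Irf2bp2, a corepressor that binds IRF2, was called at -1.05, and missed the fold threshold without CMS replicate 2 or 3 (changes of -1 and -0.97).

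The largest increases were of transcripts with little annotation. Of the 186 probe sets called higher, 86 had 1 symbol, 9 had several and 91 had none, which is 48.9%, against 20.3% of all probe sets tested. Of the 350 called lower, 18 (5.14%) had none. Of the 10 largest increases 5 had no symbol, and of the 10 largest decreases none. The probe sets 1447329_at and 1420310_at, both without a symbol, rose most. The first had 5.79, 5.85 and 6.08 with CMS and -1.53, -0.85 and -1.53 in controls (log2 change 7.21, SE 0.22, adjusted p = 0.000573 from limma), and the second 5.63, 5.92 and 5.63 against -0.82, -0.83 and -0.48 (log2 change 6.43, SE 0.14). Neither rise was confined to the amygdala. The first was called higher in the hippocampus, prefrontal cortex and cerebral cortex too, at 3.94, 2.75 and 4.78. The second was at 3.09, 1.28 and 4.76 there and was called in the hippocampus and cerebral cortex. Both rose more in the amygdala, by 3.39 over the mean of those areas.

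Several large increases were of multicopy genes. Orly, a locus repeated on the Y chromosome, had 2 of 4 probe sets called. One had 4.85, 3.23 and 4.51 with CMS and -0.49, -0.58 and -0.36 in controls (log2 change 4.67, SE 0.45, adjusted p = 0.00616 from limma) and the other changed by 3.83. A probe set shared by Astx3, Astx5 and Astx6, of a family repeated on the X chromosome, had 4.12, 4.05 and 3.88 with CMS and -0.01, -0.06 and -0.03 in controls (log2 change 4.05, SE 0.07), while the probe set of Astx3 alone had 0.51, 1.65 and 0.48 against 0.01, 0.01 and 0 and did not pass (log2 change 0.87, adjusted p = 0.14 from limma). Psg28, of the pregnancy-specific glycoprotein family, had 3.39, 3.19 and 3.78 with CMS and -0.58, -0.04 and -0.08 in controls, by its 1 probe set (log2 change 3.69, SE 0.22, adjusted p = 0.00178 from limma on genes). Copies of such families can share probes, so the copy that changed is uncertain.

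Genes of blood vessels and of the meninges rose. Vwf, von Willebrand factor, which endothelial cells store for clotting, had 1.56, 1.05 and 1.18 with CMS and -1.47, -1.28 and -1.32 in controls (log2 change 2.62, SE 0.15, adjusted p = 0.00165 from limma), all CMS arrays lying over 2 above the controls. Of 23 endothelial genes, 11 rose, none fell and Vwf alone was called, with a median of 0.316 (0.233 after quantile normalization). Flt1, a receptor of vascular endothelial growth factor, was at 0.27, 0.56 and 0.24 with CMS and -0.63, -0.4 and -0.42 in controls, and Slc2a1, the glucose transporter of the blood-brain barrier, rose by 0.57. Cdh5 and Pecam1, which define endothelium, were at 0.05 and -0.19 and did not pass. Of 14 pericyte and smooth muscle genes 3 rose, and Rgs5 fell by 0.73.

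Of 24 genes of meningeal and fibroblast matrix, 13 rose, 1 fell (Dcn, at -0.5) and 2 were called higher, with a median of 0.497. Foxd1 had 1.78, 0.95 and 1.64 with CMS and 0.61, 0.01 and 0.04 in controls (log2 change 1.24, SE 0.29, adjusted p = 0.0442 from limma), and lost its call when CMS replicate 1 or 3 or a control array was left out, at adjusted p up to 0.14. Slc47a1, a transporter of organic cations, had 1.22, 1.17 and 1.38 against 0.19, 0.5 and -0.37 (log2 change 1.15, SE 0.23), and was not called without any CMS array or control replicate 1 or 3, at adjusted p up to 0.0928. Mgp, an inhibitor of calcification, was at 1.05, 0.8 and 0.87 with CMS and -0.06, -0.03 and 0.03 in controls. Foxc2, a forkhead factor of vessel and meninges development, rose by 1.89 (CMS arrays 2.18, 2.22 and 1.38, controls -0.01, 0.03 and 0.08). Col1a1 and Lum, which define fibroblasts, were at 0.15 and 0.48 and did not pass.

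S100a8 and S100a9, which encode the 2 chains of calprotectin, a calcium-binding protein of neutrophils, rose together. S100a8 had 1.6, 0.68 and 1.29 with CMS and -0.97, -2.03 and -2.36 in controls (log2 change 2.97, SE 0.45, adjusted p = 0.0146 from limma), and S100a9 had 1.55, 0.89 and 1.67 against -1.42, -1.43 and -1.46 (log2 change 2.81, SE 0.22). The call of S100a8 was lost without control replicate 2 (adjusted p = 0.0607 from limma). None of the other 16 measured neutrophil granule genes rose or fell, and the list median was 0.0362. Of 23 microglia genes, Ctss and Csf1r rose by 0.27 and 0.21 and none fell. Ackr4, a scavenger of chemokines, was higher in 2 of its 3 probe sets, with a gene mean of 1.49, 1.82 and 1.81 against 0.35, 0.59 and 0.16 (log2 change 1.34, SE 0.15).

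Among genes of myelin and of astrocytes, about as many fell as did not pass, and nearly none rose. Of 24 oligodendrocyte and myelin genes, 12 fell, none rose and 2 were called lower, with a median of -0.262. Gjb1, the gap junction protein connexin 32, had -1.17, -1.04 and -1.46 with CMS and 0.1, 0.06 and 0.02 in controls (log2 change -1.28, SE 0.11, adjusted p = 0.00419 from limma), and both probe sets were called. Ugt8a, which makes the myelin lipid galactosylceramide, had -0.73, -0.96 and -1 against 0.05, 0.17 and 0.14 (log2 change -1.02, SE 0.08) and stayed just under a fold of 2 without CMS replicate 2 or 3 or control replicate 2, at -0.99 to -0.96. Mog, a surface protein of mature myelin, was at -0.78, -0.56 and -0.62 with CMS and 0.05, 0.09 and 0.09 in controls. Of genes that precursor cells of the lineage express, Pdgfra was at -0.21, Gpr17 at 0.01 and Cspg4 at 0.01, none of which passed.

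Of 21 astrocyte genes, 11 fell and 1 rose, with a median of -0.19. Agt, angiotensinogen, was the 1 called, at 1.61, 1.66 and 1.59 with CMS and 2.86, 2.79 and 3.05 in controls (log2 change -1.28, SE 0.07, adjusted p = 0.00158 from limma). Gja1, connexin 43, was at -0.25, -0.15 and -0.06 against 0.55, 0.5 and 0.52, and Slc39a12 and Aqp4, the water channel of astrocyte endfeet, fell by 0.49 and 0.28. A probe set of Gja1 was called lower, at -2.27. Vim, an intermediate filament that endothelial and meningeal cells also express, was the 1 that rose, at 0.53.

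Neuronal genes moved in both directions. Of 20 pan-neuronal genes 5 rose and 4 fell, with a median of 0.00687, Snap25 rising by 0.54 and Map2 falling by 0.39. The 2 probe sets of Snap25 were at 1.01 and 0.06. Of 18 genes of GABA synthesis and receptors, 8 fell, none rose and none was called as a gene, with a median of -0.0881. A probe set was called lower for 3 of them, among them Slc6a11, with probe sets at -1.43 and 0.04. Slc6a11, a GABA transporter of astrocytes, was at -0.12, 0.03 and -0.03 with CMS and 0.67, 0.62 and 0.68 in controls (log2 change -0.69, SE 0.04, adjusted p = 0.00203 from limma), and Gabrg1, a receptor subunit, at 1.3, 1.34 and 1.29 against 1.96, 1.95 and 1.91. Gad2, which makes GABA, was at 0.88, 0.85 and 0.84 against 1.46, 1.58 and 1.35, and the subunit Gabra5 fell by 0.6.

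Of 25 genes of glutamate receptors and transporters, 9 fell and 3 rose, with a median of -0.173. Grm2, a presynaptic metabotropic receptor, had -3.41, -3.89 and -3.28 with CMS and -2.29, -2.5 and -2.48 in controls (log2 change -1.1, SE 0.18, adjusted p = 0.017 from limma), and its call was lost without CMS replicate 2 or any control array, at adjusted p up to 0.0659. Slc17a6, which loads glutamate into vesicles of subcortical neurons, fell by 0.47, while its cortical counterpart Slc17a7 rose by 0.4. Cerebellins and C1q-like proteins are secreted organizers that bridge the pre- and postsynaptic membrane. Of 17 measured with their partners, 8 fell, 3 rose and 3 were called lower, among them C1ql2 and C1ql3 above. Cbln1, cerebellin 1, had -1.5, -1.88 and -2.06 with CMS and -0.56, -0.55 and -0.34 in controls (log2 change -1.33, SE 0.16, adjusted p = 0.00889 from limma), with 2 of 3 probe sets called, whereas Cbln2 rose by 0.47.

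Interneuron markers rose for 5 of 26 genes and fell for 7, Calb2, a calcium buffer, at -0.32, -0.71 and -0.56 with CMS and 0.32, 0.34 and 0.38 in controls, and Htr3a, the ionotropic serotonin receptor, falling by 0.61. Of 27 monoamine receptors and transporters 3 rose and 4 fell. Htr1d, a serotonin receptor, was at 2.5, 2.42 and 2.19 against 1.55, 1.65 and 1.82, and Th, tyrosine hydroxylase, at 1.46, 0.26 and 0.12 against 1.48, 1.41 and 1.68, with 1 CMS array among the controls (adjusted p = 0.16 from limma). Of 40 potassium channel genes 9 rose and 5 fell, and of 13 neurotrophins and receptors 1 rose and 2 fell, Ngfr by 0.52. The probe sets of Ngfr were at -1.59, which was called, 0.03 and 0.01.

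Immediate early genes, which neurons transcribe within minutes of firing or stimulation, were lower more often than higher. Of 40 measured, 13 fell, 5 rose and 4 were called lower, with a median of -0.114. Btg2, an antiproliferative cofactor, had -1.05, -1.09 and -1.41 with CMS and 0.16, 0.05 and 0.05 in controls (log2 change -1.27, SE 0.11, adjusted p = 0.00382 from limma). Npas4, a neuronal transcription factor, had -0.93, -0.96 and -1.89 with CMS and -0.07, -0.02 and 0.08 in controls (log2 change -1.26, SE 0.28), so that 1 CMS array lay far below the others, and the call was lost when CMS replicate 2 or 3 or a control array was left out, at adjusted p up to 0.126. Fosb had -0.74, -1.28 and -1.28 against 0.01, 0.17 and -0.01 (log2 change -1.16, SE 0.17) and lost the call without any 1 control array, at adjusted p = 0.0523 to 0.0575. Ier2 had -1.59, -1.44 and -1.63 against -0.44, -0.4 and -0.67 (log2 change -1.05, SE 0.09) and just missed the fold threshold without control replicate 2 (-1). After quantile normalization 10 fell, 5 rose and 2 were called lower.

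Other members were below the fold threshold. Arc, which regulates glutamate receptors at synapses, was at -1.95, -2.53 and -2.43 with CMS and -1.27, -1.41 and -1.31 in controls (log2 change -0.97, adjusted p = 0.0198 from limma). Junb, Nr4a1, Fos and Jun fell by 0.94, 0.78, 0.67 and 0.53. Not all members fell, and Ier5 and Egr1, a zinc finger factor, rose by 0.43 and 0.3.

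**Figure D2:**
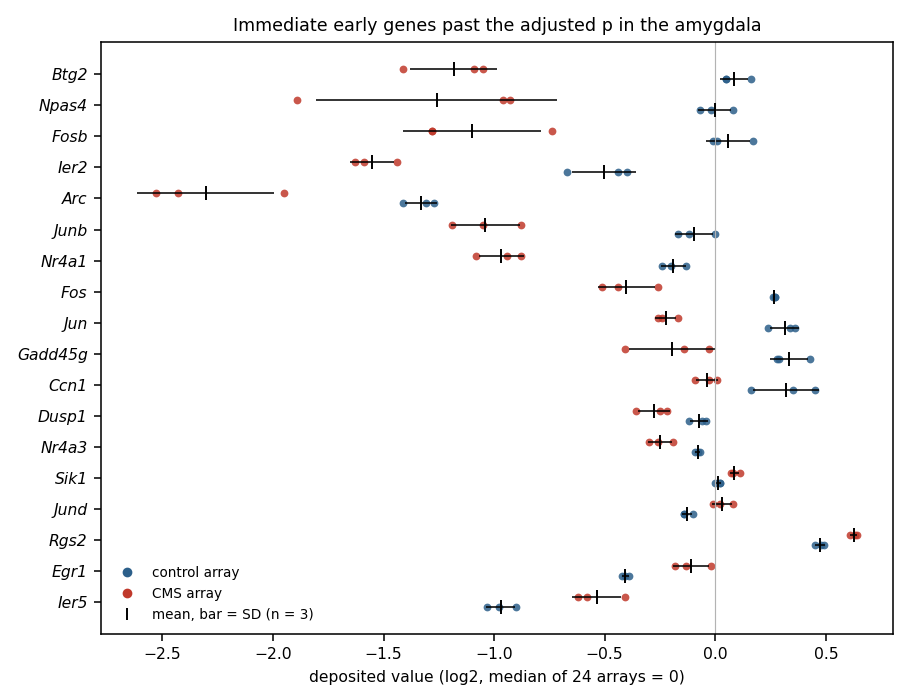
Deposited log2 values (horizontal axis, 0 is the median of the 24 arrays) of the 18 immediate early genes past an adjusted p of 0.05 in the amygdala, for each control array (blue) and CMS array (red), with the mean and SD of 3 arrays in black. For 13 genes from Btg2 to Nr4a3 the CMS arrays lie below the controls, and for 5 from Sik1 to Ier5 they lie above.

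Promoters are shown for the 3 of the 4 called members that have a window in the RefSeq table, Ier2 being without an entry, and they are marked for the letters TGACG, the core of the cyclic AMP response element through which firing can raise transcription. RefSeq windows of the 250 bases before the annotated start (build GRCm38.p6, all 3 genes on the minus strand, printed in the direction of transcription) lie at chr1:134079156-134079405 for Btg2, chr7:19310046-19310295 for Fosb and chr19:4989972-4990221 for Npas4. Capitals mark TGACG on either strand, which on the other strand reads CGTCA.
Btg2: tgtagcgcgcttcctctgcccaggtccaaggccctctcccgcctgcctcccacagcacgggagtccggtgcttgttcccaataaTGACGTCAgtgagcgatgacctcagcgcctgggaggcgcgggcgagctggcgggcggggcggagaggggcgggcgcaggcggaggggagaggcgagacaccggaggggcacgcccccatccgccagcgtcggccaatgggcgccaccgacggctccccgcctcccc
Fosb: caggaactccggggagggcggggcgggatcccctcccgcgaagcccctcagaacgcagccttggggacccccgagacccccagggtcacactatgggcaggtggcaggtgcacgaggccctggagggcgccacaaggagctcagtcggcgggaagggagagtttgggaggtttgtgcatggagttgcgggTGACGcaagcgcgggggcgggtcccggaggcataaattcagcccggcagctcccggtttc
Npas4: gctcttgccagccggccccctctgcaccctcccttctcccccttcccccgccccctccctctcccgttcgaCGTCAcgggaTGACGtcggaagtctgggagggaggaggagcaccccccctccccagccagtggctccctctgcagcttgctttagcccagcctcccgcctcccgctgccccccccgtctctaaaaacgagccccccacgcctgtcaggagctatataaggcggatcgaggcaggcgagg

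Btg2 holds the full palindrome TGACGTCA, in which TGACG on each strand overlaps, Fosb holds 1 match of TGACG and Npas4 holds 2. Of the 13 immediate early genes that fell, 11 have a window in the table and 9 of these hold TGACG. Of the other 27, 20 have a window and 12 of them hold it. Among all 32851 windows of this length, 17.8% hold TGACG on either strand and 1.55% hold TGACGTCA. The matches are a description of the letters, and no binding was measured.

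Genes that respond to stress hormones and to stress on proteins were lower more often than higher. Of 24 genes induced by glucocorticoids, the steroid hormones of the stress axis, 8 fell, 2 rose and none was called, with a median of -0.0565. Ddit4, an inhibitor of mTOR signalling, was at -0.25, -0.32 and -0.46 with CMS and 0.3, 0.35 and 0.29 in controls (log2 change -0.66, SE 0.06, adjusted p = 0.00426 from limma). Tsc22d3, known as GILZ, and Sgk1 fell by 0.57 and 0.33, while Slc2a1 rose. Of the 4 probe sets of Tsc22d3, 2 were called lower. Of 20 ligands and receptors of the stress axis, 3 fell and none rose, with Adcyap1 the 1 called. Hsd11b1, which regenerates active glucocorticoid in cells, and Adcyap1r1, the PACAP receptor, fell by 0.48 and 0.4.

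Of 28 heat shock and protein folding genes, 10 fell and 2 rose, with a median of -0.138. Hspa8, the constitutive cytosolic chaperone, was at -0.49, -0.19 and -0.19 with CMS and 0.41, 0.42 and 0.41 in controls (log2 change -0.7, SE 0.09, adjusted p = 0.00998 from limma). Hspa8 had 1 of 4 probe sets called, at -1.78, with the others at -0.66, -0.27 and -0.11. Its inducible relatives Hspa1b and Hspa1a fell by 0.59 and 0.52, and they are near-identical copies that cannot be told apart with certainty. Circadian clock genes went the other way, with 8 of 19 rising and 1 falling. Cry1, a repressor of the clock, was at 0.66, 0.69 and 0.8 with CMS and 0.03 on every control array, and Dbp, an output factor of the clock, at 0.61, 0.47 and 0.37 against -0.17, -0.22 and -0.16. Per2 rose by 0.57 and Npas2 fell by 0.48. A part of the time of day was not tested.

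Immune response genes changed little. Of 52 interferon gamma response genes, 6 rose (11.5% of the list), which is close to the 10.5% of all genes that rose, and 2 fell, with a median of 0.113. Irf2, a transcription factor, was at -0.02, 0.04 and 0.23 with CMS and -0.46, -0.69 and -0.83 in controls (log2 change 0.74, SE 0.12, adjusted p = 0.017 from limma), and Gbp3, a guanylate-binding protein, rose by 0.64. H2-Eb1, of the class II antigen-presenting complex, had 0.04, 0.62 and 1.01 against -0.57, 0 and 0.01 and did not pass (adjusted p = 0.151 from limma). Ifngr2, a chain of the interferon gamma receptor, fell by 0.56. Of 29 cytokine and NF-kB genes, Il1r1, Cxcl12 and Ccl2 rose by 0.41, 0.3 and 0.07 and none fell.

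The housekeeping lists stayed near the background. Of 71 subunits of oxidative phosphorylation, 12 rose and 6 fell, with a median of 0.0269 (Atp5a1 at 0.39 and Ndufa4 at -0.42). The 3 probe sets of Atp5a1 were at 1.002, 0.16 and 0.014. Of 43 cytosolic ribosomal protein genes 6 rose and 4 fell, but 2 rose and 6 fell after quantile normalization and 2 rose and 5 fell after median centring, so its direction turned with the scaling. Of 20 genes of cholesterol synthesis and uptake 2 rose and Srebf2 fell by 0.41. Among 8 red blood cell genes, 2 rose and 1 fell.

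The share of each list that passed the adjusted p is shown beside that of all genes.

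**Figure D3:**
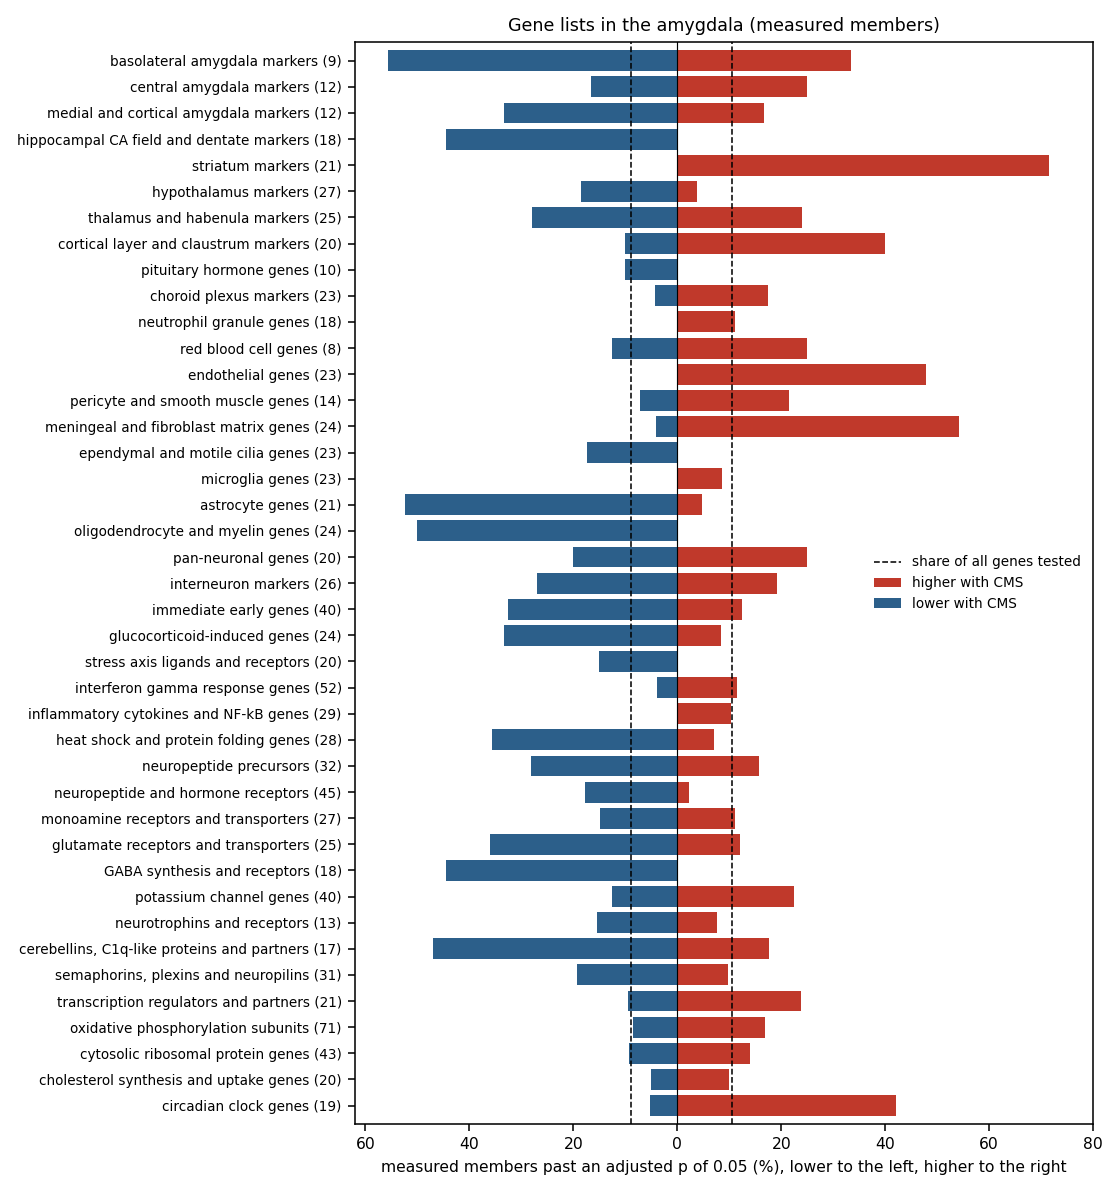
Percent of the measured members of each gene list (number measured in brackets) that were lower (blue, to the left) or higher (red, to the right) with CMS in the amygdala at an adjusted p under 0.05 from limma. The dashed lines mark the shares of all 18193 genes, 8.84% lower and 10.5% higher. Striatum markers reach furthest to the right, with 15 of 21, and basolateral, astrocyte and myelin genes reach furthest to the left.

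Transcription regulators, mainly of the REST, SWI/SNF, E2F and Wnt groups, changed by less than a fold of 2 as genes. The list was drawn up around 4 regulators that the study named from these arrays (Rest, E2f1, Smarca4 and Gsk3b), so their direction is no independent evidence. Of 21 measured, 5 rose and 2 fell, with a median of 0.0418. Gsk3b, a kinase of Wnt and insulin signalling, was at 0.24, 0.02 and -0.01 with CMS and -0.5, -0.53 and -0.49 in controls (log2 change 0.59, SE 0.07, adjusted p = 0.00899 from limma), and 1 of its 6 probe sets was called, at 1.69. Smarca4, the chromatin remodeller BRG1, was at 0.01, 0.26 and -0.07 against -0.58, -0.44 and -0.54, with 1 probe set called at 1.17 and the other at 0. Smarca2, its paralogue, fell by 0.69.

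E2f1, a cell cycle transcription factor, rose by 0.28, with arrays at -0.13, -0.1 and -0.1 against -0.35, -0.48 and -0.33. None of its 3 probe sets passed alone (adjusted p = 0.175, 0.176 and 0.361 from limma). Rest, the neuronal repressor also called NRSF, was at 0.11, 0.11 and 0.11 with CMS and 0.02, 0.09 and 0.22 in controls (log2 change 0, SE 0.05, adjusted p = 0.972 from limma), and its groups overlapped. Nrp1, neuropilin 1, a receptor of semaphorins, fell by 0.63 (SE 0.08), with arrays at -0.8, -1.05 and -0.86 against -0.36, -0.24 and -0.22, and 1 of its 4 probe sets was called. Of 31 semaphorins, plexins and neuropilins, 6 fell and 3 rose, and Plxnc1 fell by 0.78.

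Probe sets of the same gene often differed. Among genes that have more than 1 probe set, 61 had any called higher and 53 of these had just 1 (86.9%), and 236 had any called lower and 204 of these had just 1 (86.4%). The mean over the probe sets was called for 25 of 78 genes with a probe set called higher (32.1%) and for 79 of 285 with 1 called lower (27.7%). Every probe set was called for Gh, Ttr, Vgll3, Trhr and Ngb. By contrast Ntmt1, an N-terminal methyltransferase, had a probe set at 2.72, 3.04 and 3.03 with CMS and -0.81, -0.88 and -0.69 in controls (log2 change 3.73, SE 0.11, adjusted p = 0.000518 from limma) and a second at -0.03.

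Bzw2 likewise had probe sets at 2.61, 0.19 and 0.05, Sppl3, an intramembrane protease, at 2.13, 0.25 and -0.47, and Hdgf, a growth factor, at 1.93, 0.18 and -0.39. The lowest probe sets of Sppl3 and Hdgf fell while another of the same gene rose (adjusted p = 0.0291 and 0.0211 from limma). Ndfip2, an adaptor of ubiquitin ligases, had 1.98, 0.16 and 0.09, Atxn1, ataxin 1, had 1.87, 0.32 and 0.02, and Sdr39u1 had 2.02 and 0.04. Dctn4, a dynactin subunit, had 1 of 6 called, at -2.5, while another was at 0.52. Amigo1, an adhesion protein of axons, had 1 of 5 called, at 1.9. Which transcript each probe set reads was not tested.

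**Figure D4:**
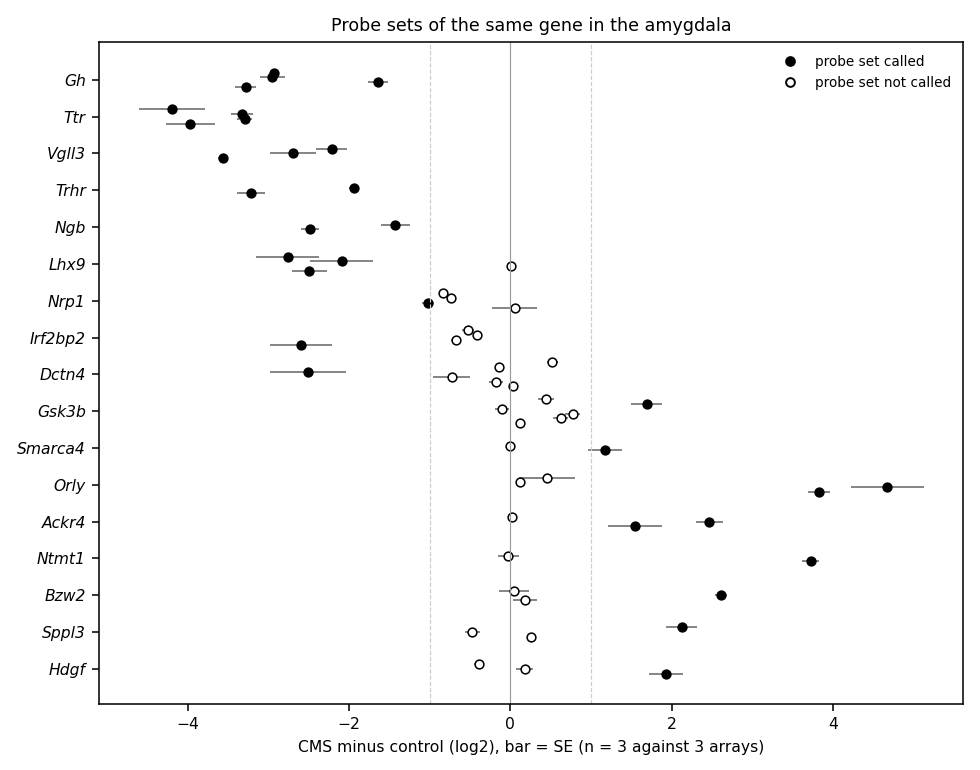
CMS minus control on the log2 scale (horizontal axis, bars are the SE of 3 against 3 arrays) for every probe set of 17 named genes in the amygdala, filled where called and open where not, with dashed lines at a fold of 2. The probe sets of Gh, Ttr, Vgll3, Trhr and Ngb are all called, while those of Ntmt1, Bzw2, Sppl3 and Hdgf hold 1 called probe set each beside others that are not called, down to -0.47 for Sppl3.

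The CMS effect of the amygdala was set against the mean effect in the other 3 areas in a fit of all 24 arrays. The difference passed the adjusted p for 16985 probe sets (37.7%) and was also over 1 on the log2 scale for 742 (1.65%), of which 205 were more positive in the amygdala (0.455%) and 537 more negative (1.19%). Of the 536 probe sets called in the amygdala, 396 (73.9%) had such a difference with the same sign as their change in the amygdala. These probe sets, like the called named genes below, were picked by their change on the same amygdala arrays. A high share that differs is therefore partly built in and is no separate evidence. As genes, 134 differed (0.737%), among them 32 of the 45 named genes called in the amygdala. The peptide and receptor genes Pmch, Grp, Tac2, Pnoc, Trhr and Calcr were among these. Pmch changed by -0.71 in the hippocampus, 0.03 in the prefrontal cortex and -0.07 in the cerebral cortex, against -4.18 in the amygdala (difference -3.93, SE 0.23, adjusted p = 1.45e-09 from limma). Trhr changed by 0.11, 0.25 and -0.12 in the same areas (difference -2.66, SE 0.13), and Calcr by -0.06, -0.09 and -0.08 (difference -2.11, SE 0.21). The control means of Pmch were 4.4 in the amygdala and 0.66, -0.1 and -0.02 in those areas. Those of Trhr were 3.22 against 0.15, -0.35 and -0.37, and those of Calcr 2.6 against 0.03, 0.07 and 0.03. From such lower control values a fall of this size may not be possible, so the difference cannot show an effect particular to the amygdala.

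Other large changes were shared with other areas or lay between them. Vwf was called higher in every area, at 1.21, 1.76 and 1.16 in the hippocampus, prefrontal cortex and cerebral cortex. Its rise was larger in the amygdala (difference 1.24, SE 0.23). Psg28 was also called in the hippocampus and cerebral cortex, at 1.14 and 2.16, as was the large probe set of Ntmt1, at 2.12 and 1.45. Ackr4 was called in the amygdala alone. S100a8 rose by 1.43, 3.57 and 3.6 in the hippocampus, prefrontal cortex and cerebral cortex (difference 0.11, SE 0.32, adjusted p = 0.816 from limma), and S100a9 was at 0.3, 3.39 and 3.8 (difference 0.32, SE 0.17, adjusted p = 0.146 from limma). Ttr was at 0.11 in the hippocampus, -7.15 in the prefrontal cortex and -6.91 in the cerebral cortex, so that the amygdala lay between these areas (difference 0.95, SE 0.07, adjusted p = 4.86e-08 from limma). Kcnj13, of the choroid plexus as well, was at 0.29, -0.96 and -3.1 there and did differ (difference 2.31, SE 0.21, adjusted p = 3.23e-07 from limma). Of the 4 called immediate early genes none differed by over 1: Npas4 was at -1.77, -1.19 and -1.14 in those areas (difference 0.11, SE 0.23, adjusted p = 0.741 from limma) and Fosb at -0.68, -2.06 and -1.77 (difference 0.34, SE 0.16, adjusted p = 0.107 from limma).

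Over whole lists, immediate early genes fell for 27, 23 and 24 of 40 members in the hippocampus, prefrontal cortex and cerebral cortex, where 24.9%, 3.92% and 3.99% of all genes fell. Their effect was more positive in the amygdala for 19 members and more negative for 3, where 22.7% and 11.5% of all genes were. Glucocorticoid-induced genes fell for 8, 9 and 7 of 24 in the same 3 areas and rose for 2, 6 and 1. Heat shock and protein folding genes fell for 8, 8 and 6 of 28 and rose for 0, 4 and 1. Clock genes rose for 9, 6 and 7 of 19 and fell for 4, 4 and 3, where 847, 809 and 1083 of 18193 genes rose. Astrocyte genes had a more negative effect in the amygdala for 13 of 21 and more positive for none, and myelin genes for 13 of 24 and none. Myelin genes fell in the prefrontal cortex too, for 10 of 24 with none rising and a median of -0.246, whereas 8 rose and none fell in the cerebral cortex, and 3 rose and 4 fell in the hippocampus. Astrocyte genes fell for 4, 5 and 0 of 21 in the hippocampus, prefrontal cortex and cerebral cortex, and 7 rose in the last. GABA genes were more negative for 10 of 18. Meningeal and fibroblast genes were more positive for 13 of 24, with a median difference of 0.462 against 0.0413 over all genes. Choroid plexus markers were more positive for 14 of 23 and more negative for 1, with a median difference of 0.603. They fell for 16 of 23 in the cerebral cortex, with 13 called lower, and for 8 in the prefrontal cortex, with none rising in either. In the hippocampus 4 of them rose and 1 fell. Striatum markers were more positive for 6 of 21 and more negative for 1. In the cerebral cortex 16 of these 21 rose and none fell, where 5.95% of all genes rose, in the prefrontal cortex 1 rose and 10 fell, and in the hippocampus 2 rose and 1 fell.

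**Figure D5:**
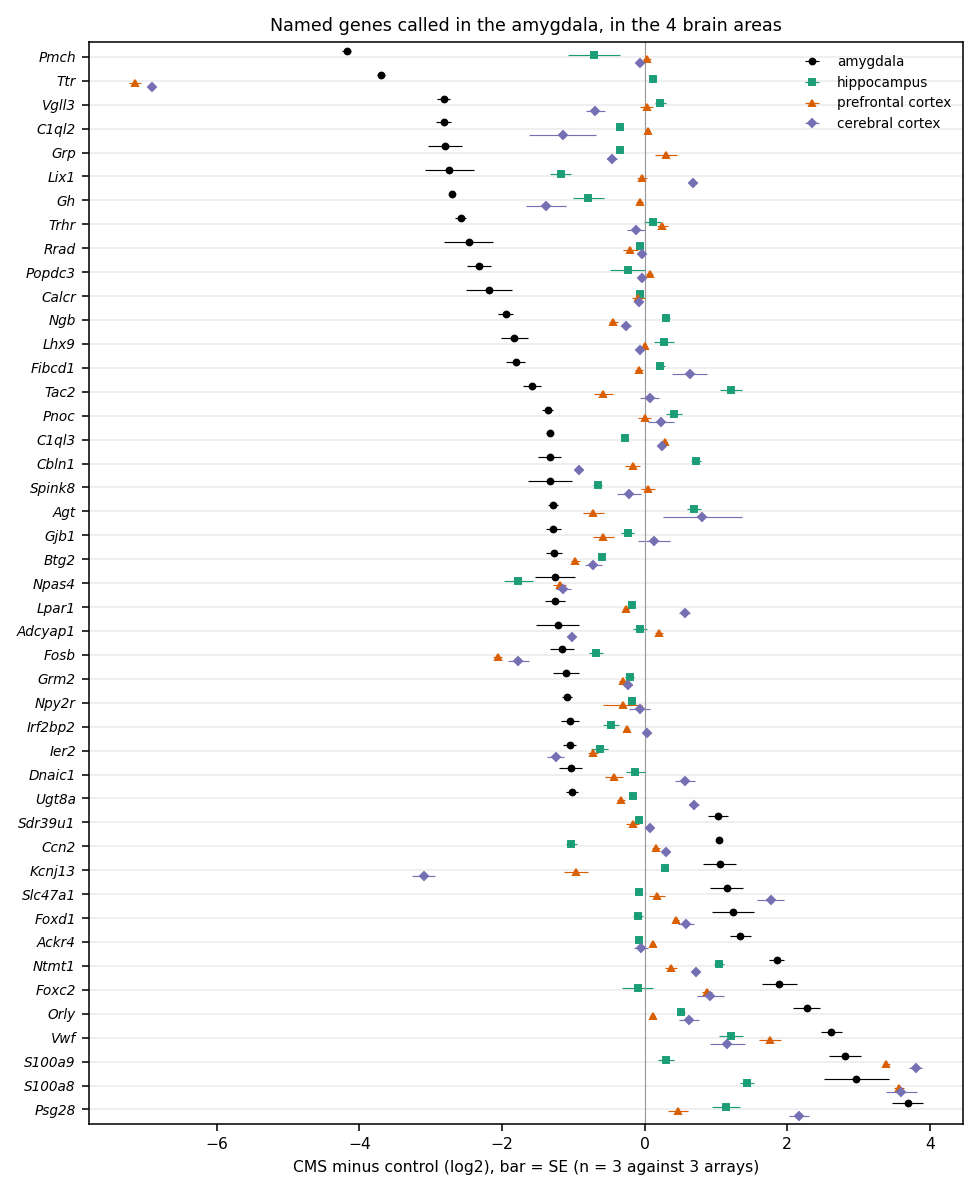
CMS minus control on the log2 scale (horizontal axis, bars are the SE of 3 against 3 arrays) for the named genes called in the amygdala, ordered by their change there, in the amygdala (black), hippocampus (green), prefrontal cortex (orange) and cerebral cortex (purple). Pmch, Trhr and Calcr fell most in the amygdala, where their control values were also the highest of the 4 areas. S100a8, Npas4, Ier2 and Vwf were among the genes with the same sign in all 4 areas.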

How the data were processed

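Total RNA of mouse amygdala (3 CMS and 3 control arrays), with 18 arrays of other areas for comparison, was measured on Affymetrix arrays. The authors summarised the probes with GCRMA in GeneSpring GX and normalised to a baseline (versions not given in the sources used here), and deposited log2 values centred per probe set. The centring removes absolute levels, so no filter on brightness was possible, and the number of arrays limits the precision.

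Of 45101 probe sets, 64 Affymetrix controls were left out. Of the 45037 tested, 34945 matched 1 symbol of the platform annotation, 932 several and 9160 none, giving 18193 genes. CMS was compared with control with limma 3.58.1 in R 4.3.3 (adjusted p under 0.05, fold over 2), tested on simulated data. Python 3.11.15, pandas 2.3.3, scipy 1.17.1 and matplotlib 3.10.9 served for summaries and figures. Sequences are from RefSeq.

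The 41 gene lists (922 distinct measured members), the tests and the rule for named genes were chosen with earlier results of these data known. The rule names the 15 largest increases and decreases among called probe sets of 1 symbol without overlap of arrays, genes the study names for the amygdala, and for each list up to 6 members called, or, with none called, its 2 largest changes. Further members were picked as examples after their values had been seen. Not every listed gene had a probe set of its own here. The alternatives tried were a fit of all arrays, the methods' t-test, other scalings, variance options, array weights, a filter on low variation, a replicate block, leaving out each array and other fold thresholds.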

Additional observations from a re-analysis of the deposited data

Results flagged for a closer look

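For 33 named genes the CMS effect in the amygdala differed from the mean effect in the other 3 areas by over 1 on the log2 scale, by limma's test of that difference. For 24 of them it was more negative in the amygdala. Among peptides and receptors these were Pmch (-3.93), Trhr (-2.66), Grp (-2.63), Calcr (-2.11), Gh (-1.95), Tac2 (-1.82), Pnoc (-1.57) and Lpar1 (-1.3). Among hippocampal markers and secreted synaptic organizers they were C1ql2 (-2.33), Fibcd1 (-2.07), C1ql3 (-1.42), Cbln1 (-1.21) and Spink8 (-1.05). Glial and ependymal genes were Agt (-1.54), Ugt8a (-1.09), Gjb1 (-1.05) and Dnaic1 (-1.04). The others were Vgll3 (-2.68), Lix1 (-2.56), Rrad (-2.36), Popdc3 (-2.24), Lhx9 (-1.9), Ngb (-1.82) and Calb2 (-1.18). It was more positive in the amygdala for 9, which were Psg28 (2.43), Kcnj13 (2.31), Orly (1.86), Ackr4 (1.35), Foxc2 (1.33), Vwf (1.24), Ccn2 (1.23), Ntmt1 (1.14) and Sdr39u1 (1.09). Such a difference also depends on the control value of a gene in each area, given above for Pmch, Trhr and Calcr. Of these genes, 32 had also been called on the same amygdala arrays, so a difference was partly built in.

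The bacterial hybridisation controls, which were left out of the tests, were higher on the CMS arrays than on the control arrays of the amygdala by 0.802 on the log2 scale.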

How the results depend on the processing

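No named result changed its sign under any alternative run. Of 45 named genes called, 25 kept the call under every alternative that gave a value, and of 51 named probe sets 34 did. The count of called probe sets (536) was within 1.5 times under the methods' t-test (497), the fit of all arrays, both scalings, array weights, trend and robust options and the filter on low variation. It was 8249 with no fold threshold and 1695 at a fold of 1.5, and 329 to 545 when 1 array was left out, the lowest values coming without control replicate 2 (329), 1 (342) or 3 (350). The count past the adjusted p alone (8249) was 5284 with the filter, 12945 in the fit of all arrays, 13246 with trend and robust options and 2583 to 8831 with 1 array left out (4973 without CMS replicate 2). Genes called (106) numbered 166 with the filter, which tests fewer genes, 3527 with no fold threshold, 463 at a fold of 1.5 and 78 to 112 with 1 array left out. The probe sets that differed from the other areas (742) numbered 16985 with no fold threshold and 723 to 799 with 1 array left out. The distinct list members called (32) numbered 67 when counted by any called probe set. Beyond construction, the cause of these shifts was not tested.

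The replicate numbers did not pair the arrays: the deviations of same-numbered CMS and control arrays correlated at -0.026, 0.011 and -0.058, and not every array correlated best with its own number. With the replicate number as a block, 246 probe sets were called, 1743 passed the adjusted p and 74 genes were called, and 739 probe sets differed from the other areas.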
